A study of Mus musculus with 9 samples.

Results

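Txnip, the 4 arrestin domain-containing genes Arrdc1 to Arrdc4, the glucose-sensing transcription factor genes Mlxip and Mlx, and the glucose transporter gene Slc2a1 were followed in mouse embryonic fibroblasts (MEFs) under hyperosmotic stress. The 8 genes were taken by symbol from the 35275 genes of the deposited table, and each symbol matched 1 row. They were chosen from their function and from measured values of these same libraries, namely the large count difference of Txnip between the stress intensities, so their values are given here as a description, with no test of their own. Where one of them is said to be called, this only places it in the table of all genes, as having an edgeR adjusted p under 0.05. Wild type C57Bl/6 MEFs were kept as control cells in iso-osmolar medium, or were treated for 3 h with 200 mM added sucrose (500 mOsm, low intensity) or 300 mM added sucrose (600 mOsm, high intensity). All cells grew in high-glucose DMEM with 10% serum, and polyadenylated RNA was sequenced as 3 libraries per treatment, 9 in all. Whether the libraries of a treatment came from separate cultures is not said, so p-values measure the spread between these samples, which may be technical.

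Txnip encodes thioredoxin-interacting protein, which binds thioredoxin and, as an α-arrestin, takes part in removing glucose transporters such as GLUT1, the product of Slc2a1, from the cell surface. The other α-arrestins are adaptors with an arrestin fold and PPxY sequences that recruit ubiquitin ligases of the Nedd4 family to membrane cargo. Mlxip encodes MondoA, which with its partner Mlx enters the nucleus when sugar phosphates accumulate and binds paired E-box-like elements, of which those of Txnip and Arrdc4 are textbook examples.

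The upstream sequences of Txnip and Arrdc4, the known MondoA targets among the genes, are shown because the libraries of the first did not overlap between treatments here and those of the second did. Each run holds the 250 bases before the RefSeq transcription start (GRCm38.p6), read 5′ to 3′ on the gene's strand, and capitals mark each match to CACGNG on either strand. The Txnip run lies at chr3:96557707-96557956 on the plus strand and the Arrdc4 run at chr7:68749239-68749488 on the minus strand.
Txnip: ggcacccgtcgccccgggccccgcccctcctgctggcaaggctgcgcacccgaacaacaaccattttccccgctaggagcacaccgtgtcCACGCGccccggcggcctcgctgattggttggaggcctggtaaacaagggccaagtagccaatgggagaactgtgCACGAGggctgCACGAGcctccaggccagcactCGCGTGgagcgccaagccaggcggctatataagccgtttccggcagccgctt
Arrdc4: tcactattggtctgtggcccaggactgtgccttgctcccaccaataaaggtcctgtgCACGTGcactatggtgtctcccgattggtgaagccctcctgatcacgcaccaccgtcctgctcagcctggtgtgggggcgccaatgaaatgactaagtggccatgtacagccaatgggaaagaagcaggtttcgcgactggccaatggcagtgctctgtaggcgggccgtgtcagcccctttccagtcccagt
In Txnip, matches at positions -85 to -80 and -74 to -69 from the start form a direct pair with 5 bases between them, CACGAGggctgCACGAG, at chr3:96557872-96557888. The spelled-out pair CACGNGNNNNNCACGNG, searched on both strands, was found in this window in 14 of 27025 genes (0.0518%), and Txnip was the only one of the 8 genes with it. Arrdc4 held 1 palindromic CACGTG at -193 to -188, a motif present in 6.86% of genes and also found in Mlx at -40 to -35. The hexamer CACGNG, which includes CACGTG, was found in 5 of the 8 genes and in 26.1% of all genes, and CCAAT on either strand in 6 of the 8 and in 37.5%. Arrdc4 carried 6 CCAAT matches and Txnip 2. The inverted pair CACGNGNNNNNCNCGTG (12 genes, 0.0444%) was in none of the 8. A match is a sequence description and says nothing of binding, and longer stretches were not searched.

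**Figure D1:**
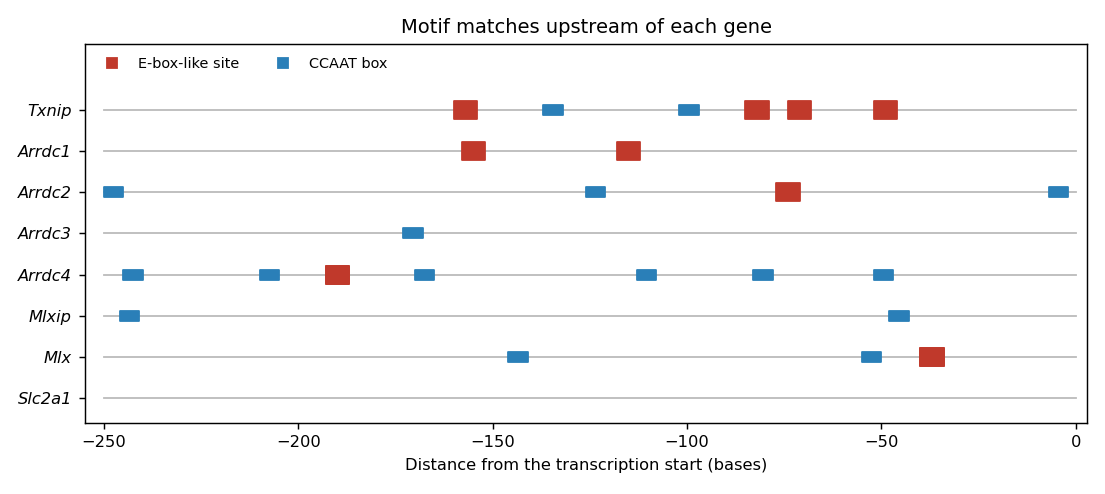
Matches to the E-box-like hexamer CACGNG (red) and to CCAAT (blue), on either strand, in the 250 bases before the RefSeq transcription start of each gene; the x axis is the distance from the start in bases, and for Arrdc3 the most upstream of its listed starts is drawn. Txnip has 4 E-box-like matches, of which the pair at -85 and -74 lies 5 bases apart, while Slc2a1, Mlxip and Arrdc3 have no such match.

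Each library held 21716042 to 26740832 reads counted on genes, so that 3 counts, taken as a floor that covers counting error only, corresponded to 0.113 to 0.137 CPM (counts scaled to the library total, with edgeR's TMM factors). All 8 genes were among the 13082 that passed the filter on low counts. The fibroblast markers (Col1a1, Col1a2, Vim, Fn1 and 6 others) were all expressed. Their summed level was 20366 to 21601 CPM in iso-osmolar medium, 20417 to 21303 CPM at 500 mOsm and 22987 to 24732 CPM at 600 mOsm, above every other library. At 600 mOsm 3 of the 10 rose (Col1a1, Col1a2 and Pdgfrb) and 3 fell (Col3a1, Pdgfra and Twist1), and at 500 mOsm 1 rose (Pdgfrb) and 2 fell (Col3a1 and Pdgfra), with an edgeR adjusted p under 0.05. Of all genes tested, 35.1% were called at 600 mOsm and 28% at 500 mOsm against control cells. Markers of other cell types were far lower and also moved with treatment in part. The 5 endothelial markers summed to 0.778 to 0.900 CPM in iso-osmolar medium, 12.0 to 13.4 CPM at 500 mOsm and 2.13 to 3.18 CPM at 600 mOsm. Most of the sum was Pecam1 at 500 and 600 mOsm, whereas in iso-osmolar medium Cdh5 (mean 0.554 CPM) exceeded Pecam1 (0.279 CPM). The 6 epithelial markers summed to 1.43 to 1.76, 5.00 to 6.39 (mainly Cdh1) and 1.61 to 2.34 CPM in the same order, and the 5 adipocyte markers to 0.123 to 0.246, 1.41 to 2.07 and 0.619 to 1.16 CPM. The 5 leukocyte markers found in the table, chiefly Cd14 and Csf1r, summed to 34.4 to 37.8, 28.6 to 30.8 and 29.0 to 32.0 CPM. This sum hides opposite changes at 500 mOsm, each with an edgeR adjusted p under 0.05. Cd14 fell (log2 fold change -0.98), while Csf1r (0.38) and Itgam (5.28, from a mean of 0.044 to 1.85 CPM) rose. No marker was at 0 in all libraries. Across all libraries together, Epcam and Emcn had 3 and 1 counts, Ptprc 19 and Adipoq 23, whereas Cdh1 had 275 and Pecam1 999. The mean of Adipoq was 0 CPM in iso-osmolar medium, 0.195 CPM at 500 mOsm and 0.113 CPM at 600 mOsm. That of Ptprc was 0.029, 0.208 and 0.014 CPM in the same order. The part of these transcripts in the results below was not tested.

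Txnip (ENSMUSG00000038393) maps to chr3:96557957-96561883 of mm10, plus strand. It was lower at low intensity and higher at high intensity than in control cells. Its level was 6.74, 5.65 and 6.95 CPM in the 3 iso-osmolar libraries, 2.58, 2.22 and 1.94 CPM at 500 mOsm, and 16.7, 14.4 and 14.1 CPM at 600 mOsm. Every 500 mOsm library lay below every iso-osmolar library, and every 600 mOsm library lay above them. In raw reads, the 500 mOsm libraries held 51 to 63 Txnip counts, the iso-osmolar libraries 138 to 170 and the 600 mOsm libraries 322 to 399. The means with their SD (n = 3) were 6.45 ± 0.696 CPM in control cells, 2.25 ± 0.320 CPM under low and 15.1 ± 1.43 CPM under high intensity. Expressed as fitted fold changes, Txnip was 2.87-fold lower at 500 mOsm than in control cells (log2 fold change -1.52, SE 0.145) and 2.34-fold higher at 600 mOsm (log2 fold change 1.22, SE 0.121). Between the intensities the difference was 6.69-fold (log2 fold change 2.74, SE 0.137, 95% interval 2.45 to 3.04). On log2(FPKM + 1), where low levels are compressed, the same log2 differences were -0.87, 0.93 and 1.80. As these are bulk cultures, fewer cells expressing a gene and less RNA per cell cannot be told apart.

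Txnip shares 606 exon bases, 19.4% of its annotated exon sequence, with the antisense gene Gm15441 on the minus strand (GENCODE M21). Whether reads were counted by strand is not given in the sources used here, so reads from the shared bases cannot be assigned to either gene with certainty. Gm15441 was counted 38 times in all 9 libraries against 1714 for Txnip. Its counts were 2, 3 and 0 in iso-osmolar medium, 3, 7 and 7 at 500 mOsm and 2, 3 and 11 at 600 mOsm, low numbers whose groups overlapped.

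**Figure D2:**
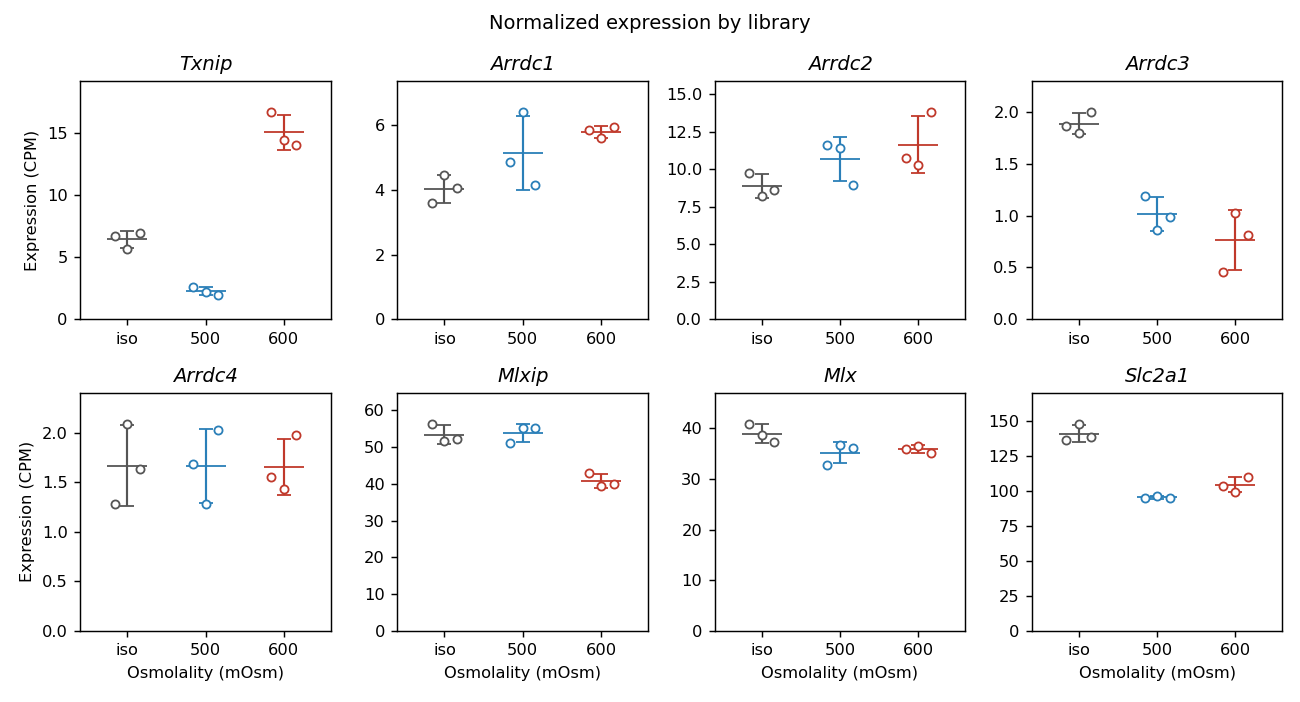
Normalized expression (CPM, y axis from 0, with its own scale in each panel) of the 8 genes in each library (open circles) in iso-osmolar medium (iso) and at 500 and 600 mOsm; the horizontal line is the mean and the bars the SD of 3 libraries. Txnip lies below the iso-osmolar circles at 500 mOsm and above them at 600 mOsm, Slc2a1 and Arrdc3 lie below them at both intensities, and Arrdc4 overlaps throughout.

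Among the other α-arrestins, 3 of 4 genes were called at 600 mOsm against control cells, where 35.1% of all genes tested were called and nothing is read from the count, upward in Arrdc1 and Arrdc2 and downward in Arrdc3. Arrdc1, an adaptor known for the budding of vesicles from the plasma membrane, maps to chr2:24925352-24935252 (minus strand). It was measured at 3.60, 4.47 and 4.05 CPM in iso-osmolar medium, 4.88, 6.41 and 4.16 CPM at 500 mOsm and 5.86, 5.60 and 5.96 CPM at 600 mOsm. The 600 mOsm libraries lay above all control libraries, with a log2 fold change of 0.52 (SE 0.159), whereas the 500 mOsm libraries overlapped with both other groups.

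Arrdc2, at chr8:70835155-70839720 (minus strand), showed 9.74, 8.19 and 8.63 CPM in iso-osmolar medium, 11.6, 11.4 and 8.96 CPM at 500 mOsm and 10.8, 10.3 and 13.8 CPM at 600 mOsm. Its log2 fold change against control cells was 0.40 (SE 0.138) at 600 mOsm, where groups did not overlap, and 0.27 (SE 0.139) at 500 mOsm, where they did. The calls of Arrdc1 and Arrdc2 at 600 mOsm were close to the threshold. Arrdc1 was no longer called without iso-osmolar replicate 1 (log2 fold change 0.45) or 3 (0.52) or without 600 mOsm replicate 1 (0.52) or 3 (0.50), and Arrdc2 without iso-osmolar replicate 2 (0.34) or 3 (0.38) or without 600 mOsm replicate 1 (0.45) or 3 (0.25). At 500 mOsm the log2 fold change of Arrdc1 was 0.35, not called, and it was 0.15 without 500 mOsm replicate 2 and 0.48, called, without 500 mOsm replicate 3.

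Arrdc3, an adaptor linked to the trafficking of adrenergic receptors, maps to chr13:80883384-80896035 (plus strand). It went the other way, with 1.87, 1.80 and 2.00 CPM in iso-osmolar medium, 1.19, 0.867 and 0.992 CPM at 500 mOsm and 0.460, 1.03 and 0.812 CPM at 600 mOsm. Control libraries lay above all treated libraries, while the intensities overlapped. The log2 fold change was -0.90 (SE 0.243) at 500 mOsm and -1.30 (SE 0.258) at 600 mOsm, with 11 to 29 reads per treated library and 41 to 49 per control library. Without 500 mOsm replicate 2, Arrdc3 was no longer called at 500 mOsm (-0.81). On log2(FPKM + 1), where its low level is compressed, the differences were -0.23 and -0.30.

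Arrdc4, which maps to chr7:68737045-68749241 (minus strand), overlapped in every comparison. Its levels were 1.27, 2.09 and 1.64 CPM in iso-osmolar medium, 1.68, 1.28 and 2.02 CPM at 500 mOsm and 1.55, 1.43 and 1.97 CPM at 600 mOsm. Its log2 fold change between the intensities was -0.0010, with a 95% interval from -0.52 to 0.52. Against control cells the interval was -0.53 to 0.51 under low and -0.54 to 0.51 under high intensity. Arrdc4 had 28 to 53 reads per library. A difference of the size seen in Txnip lay outside these intervals, and differences within them remain possible.

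Levels of different genes can be compared in the deposited FPKM, which scale counts to gene length and library total. The summed FPKM of Txnip and Arrdc1 to Arrdc4 (mean ± SD, n = 3) was 9.44 ± 0.290 in control cells, 9.16 ± 1.12 under low and 14.3 ± 0.585 under high intensity. The sum at 600 mOsm, from 13.6 to 14.8, lay above that of every other library. The Txnip share of this sum (mean ± SD, n = 3) was 24.2% ± 2.16 in control cells, 8.73% ± 0.878 under low and 37.0% ± 3.95 under high intensity.

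**Figure D3:**
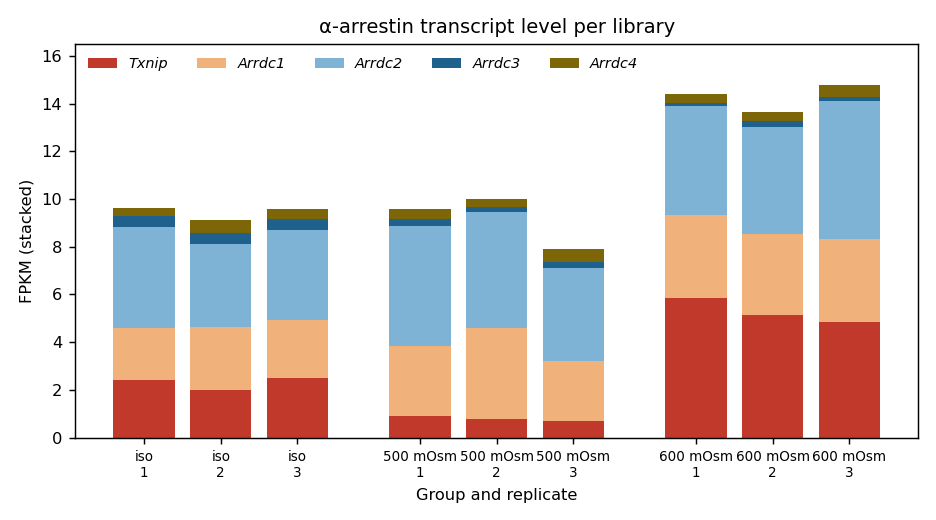
FPKM of Txnip and Arrdc1 to Arrdc4 stacked for each library (x axis, group and replicate; y axis, FPKM from 0). The Txnip segment is smallest at 500 mOsm (0.696 to 0.916 FPKM) and largest at 600 mOsm (4.85 to 5.85 FPKM), where the whole stack is also highest.

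The genes for the glucose-sensing factors had higher CPM than the α-arrestin genes, and their log2 fold changes were smaller in size than those of Txnip. Mlxip maps to chr5:123394798-123457932 (plus strand). It showed 56.4, 51.7 and 52.3 CPM in iso-osmolar medium and 51.2, 55.3 and 55.1 CPM at 500 mOsm, overlapping ranges with a log2 fold change of 0.012 (SE 0.0615). At 600 mOsm it was 42.9, 39.4 and 40.1 CPM, below all other libraries. The log2 fold change at 600 mOsm was -0.39 (SE 0.0623) against control cells and -0.40 (SE 0.0621) against 500 mOsm. Thus Txnip was highest in the libraries where Mlxip was lowest.

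Mlx, at chr11:101087277-101092207 (plus strand), showed 40.9, 38.6 and 37.2 CPM in iso-osmolar medium, 32.8, 36.8 and 36.0 CPM at 500 mOsm and 35.9, 36.6 and 35.2 CPM at 600 mOsm. All treated libraries lay below the control libraries, by a margin that passed no threshold (log2 fold changes of -0.14, SE 0.0657, at 500 mOsm and -0.12, SE 0.0658, at 600 mOsm). Mlx shares 385 exon bases (19.3%) with the opposite-strand gene Psmc3ip, which had 6851 counts in all libraries against 8054 for Mlx, so its counts are uncertain in the same way as those of Txnip. Smaller overlaps with antisense genes were found for Mlxip (Gm15747, 267 bases, 3.21%) and Slc2a1 (Gm12868, 105 bases, 2.99%). Gm15747 had 13 and Gm12868 20 counts in all libraries.

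Slc2a1 maps to chr4:119108711-119137330 (plus strand). It was lower than in control cells at both intensities. It was measured at 136, 148 and 139 CPM in iso-osmolar medium, 94.8, 96.4 and 94.7 CPM at 500 mOsm and 104, 99.3 and 110 CPM at 600 mOsm, so that no groups overlapped. The log2 fold change was -0.57 (SE 0.0526) at 500 mOsm and -0.43 (SE 0.0525) at 600 mOsm, which correspond to levels 1.48-fold and 1.35-fold lower. Between the intensities the log2 fold change was 0.13 (SE 0.0528), not called with all libraries and called without 600 mOsm replicate 2 (0.17). Slc2a1 was thus lower at 500 mOsm, where Txnip was also lower, and at 600 mOsm, where Txnip was higher.

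Against iso-osmolar medium at 500 mOsm, 3 of the 8 genes were called (0 higher, 3 lower), where 28% of all genes tested were called at an adjusted p under 0.05. At 600 mOsm 6 of the 8 were called (3 higher, 3 lower), where 35.1% of all genes were, and between the intensities 2 were called (1 higher, 1 lower at 600 mOsm), where 29.1% of all genes were. Groups did not overlap for 4, 7 and 3 of the 8 genes in the same order, against 40.9%, 48.4% and 41.5% of all genes. As the genes were chosen with these comparisons known, nothing is read from the counts. The median log2 fold change of the 8 genes was -0.078, -0.065 and 0.077, beside 0.013, 0.0075 and 0.0061 over all genes tested. Both comparisons with iso-osmolar medium use the same 3 control libraries.

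**Figure D4:**
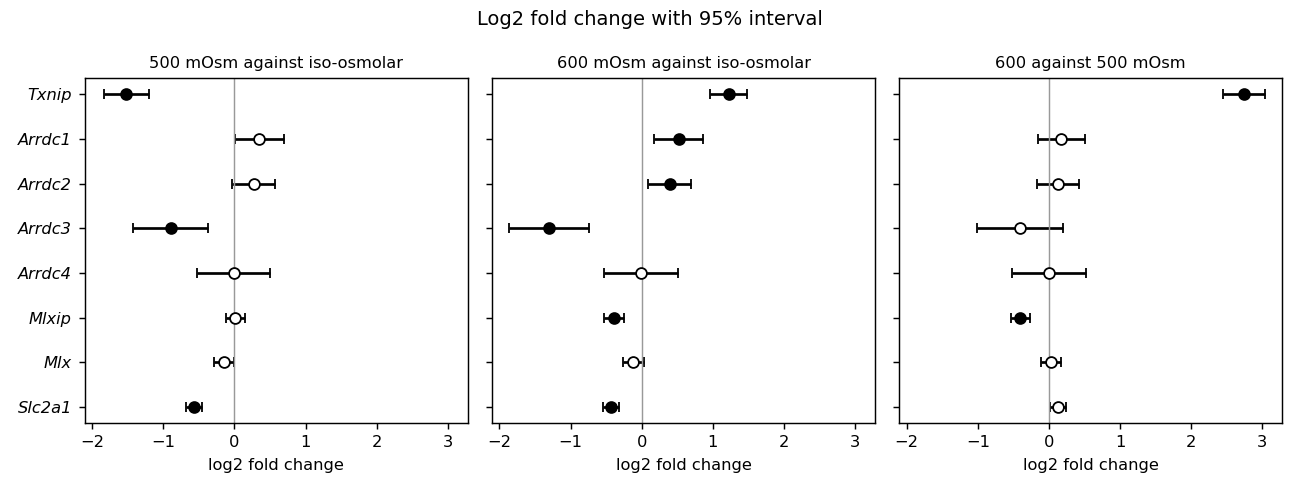
Log2 fold change (x axis) of each gene in the 3 comparisons, from the fit of all 9 libraries, with its 95% interval; filled circles are genes with an adjusted p under 0.05 over all genes tested. Txnip changes side between 500 mOsm (-1.52) and 600 mOsm (1.22), and the intervals of Arrdc4 span 0 in all panels.

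Ordered by mean FPKM, Slc2a1 (54.3), Mlx (19.9), Mlxip (7.35) and Arrdc2 (3.82) led in control cells, followed by Arrdc1 (2.43) and Txnip (2.29), whose libraries overlapped, and by Arrdc3 (0.460) and Arrdc4 (0.434), whose libraries overlapped as well. At 500 mOsm no neighbours in the order overlapped, and Txnip (0.798 FPKM) stood between Arrdc1 (3.09) and Arrdc4 (0.433). At 600 mOsm Txnip (5.28 FPKM) overlapped with Mlxip (5.53) above it and with Arrdc2 (4.94) below it, and the remaining neighbours did not overlap.

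The genes whose log2 CPM followed Txnip most closely were sought among 10381 other genes, all with a mean log2 CPM of 1 or more. Over the 9 libraries, which fall into 3 treatments, the highest Pearson's r was 0.982 for Irf1, an interferon regulatory transcription factor gene. It was followed by Sh3bp2 (0.978), Ell (0.969), Hmgb2 (0.967), Ska2 (0.967), Sephs2 (0.966), Flna (0.964) and Nol12 (0.963). Ell encodes a transcription elongation factor and Flna the actin crosslinker filamin A. Their changes were smaller than that of Txnip, with a log2 difference from 500 to 600 mOsm of 0.17 in Flna (2687 CPM at 500 mOsm and 3023 CPM at 600 mOsm) and up to 1.33 in Irf1 (21.4 and 53.8 CPM). Of the other 7 genes of the set, Slc2a1 ranked 3844 (r = 0.26), Arrdc1 3934 (0.25), Arrdc2 4218 (0.21), Mlx 4560 (0.16) and Mlxip 9773 (-0.81). Arrdc4 (r = -0.061) and Arrdc3 (-0.25) were under the level required for a rank. These values describe a shared order of 3 treatments and carry no test.

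Genes of the surrounding pathways, excluding the 8 genes, were read from the same fit and are given with its adjusted p-values. They were listed by function, but with earlier results of these data known, and the p-values do not account for that choice. Many of their calls lay near the threshold. Of 67 calls of these genes and of the 3 genes with the Txnip motif pair named last, 23 were lost when 1 library was left out. Over the 9 refits, 1 per library left out, 85 of 603 values (67 calls in each refit) lost the call. Each refit lost some, with edgeR adjusted p from 0.0513 to 0.218 and no change of direction. At 500 mOsm the lost calls were Dscr3, Mxd1, Scd1 and Txnrd3, and at 600 mOsm against control cells A430005L14Rik, Arrb2, Fasn, Hk1, Hkdc1, Mxd4, Nedd4l, Prkag1, Snx1, Snx5 and Vps4b. Between the intensities they were Bhlhe40, Dscr3, Hk1, Prkaa1, Smurf2, Snx5, Vps4b and Wwp2. Among the other glucose transporters, 3 of 11 (Slc2a6, Slc2a8 and Slc2a10) passed the filter, and 0 were called in any comparison (edgeR, with adjusted p from 0.16 to 0.875, 0 of 3 at an unadjusted p under 0.05, and 0 by DESeq2). Over all genes tested, 28% to 35.1% were called in a comparison. Slc2a8 showed 5.87 CPM in iso-osmolar medium, 6.89 CPM at 500 mOsm and 6.21 CPM at 600 mOsm. The insulin-responsive Slc2a4 and the neuronal Slc2a3 had 21 and 36 counts in all libraries. These genes were picked as examples after their values were seen. The Slc2a1 share of the summed FPKM of the 12 Slc2a genes (mean ± SD, n = 3) was 92.3% ± 0.434 in control cells, 87.9% ± 0.404 under low and 89.3% ± 0.0622 under high intensity.

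The MondoA paralog Mlxipl (ChREBP) had 15 counts in all. The other partners of Mlx, transcriptional repressors of the Mxd and Mnt type, all passed the filter. Mnt fell from 51.7 CPM in iso-osmolar medium to 27.6 CPM at 500 mOsm (log2 fold change -0.90, SE 0.0767, edgeR adjusted p = 1.91e-06) and to 40.9 CPM at 600 mOsm (-0.34, adjusted p = 0.0042). Mxd1 rose at 500 mOsm (0.47, edgeR adjusted p = 0.0127) and was lower at 600 than at 500 mOsm (-0.62, adjusted p = 0.0027). Mxd4 rose at 500 mOsm (0.40, edgeR adjusted p = 0.00448) and at 600 mOsm (0.28, adjusted p = 0.0305), the latter lost with DESeq2 (adjusted p = 0.052).

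Of 19 further genes known as targets of carbohydrate-response factors, mainly in liver, 11 passed the filter. At 500 mOsm 0 of them rose and 6 fell, where 13.2% of all genes tested rose and 14.8% fell, with a list median log2 fold change of -0.24. At 600 mOsm 0 rose and 7 fell, where 15.1% and 20% of all genes did, with a median of -0.27. Between the intensities 1 was higher and 2 were lower at 600 mOsm (11.9% and 17.2% of all genes; median -0.11). Hk2, the inducible hexokinase, fell from 141 ± 4.91 to 72.4 ± 2.25 CPM (SD, n = 3 each) at 500 mOsm (log2 fold change -0.97, SE 0.05, edgeR adjusted p = 2.59e-08). At 600 mOsm it was 98.4 ± 3.21 CPM (SD, n = 3), lower than in control cells (-0.52, adjusted p = 5.88e-06) and higher than at 500 mOsm (0.44, adjusted p = 2.9e-05, edgeR in each case). Bhlhe40, a transcriptional repressor of the clock, fell at 500 mOsm (-1.09, edgeR adjusted p = 2.29e-07) and at 600 mOsm (-1.34, adjusted p = 5.88e-08). Rgs16, a regulator of G protein signalling, and Khk, the fructose-phosphorylating ketohexokinase, fell at 600 mOsm, by 1.02 (edgeR adjusted p = 0.000962) and 0.91 (adjusted p = 0.0111) on the log2 scale. The 2 genes lower at 600 than at 500 mOsm were Rgs16 (-0.93, edgeR adjusted p = 0.00199) and Bhlhe40 (-0.25, adjusted p = 0.024). Fasn, the fatty acid synthase gene, fell by 0.36 at 500 mOsm (edgeR adjusted p = 0.000901).

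Hexokinases and the isoforms of the bifunctional enzyme that sets fructose 2,6-bisphosphate, a list that again holds Hk2 and Pfkfb3, were tested for 7 of 9 genes. At each intensity 1 rose and 3 fell against control cells, where 28% (500 mOsm) and 35.1% (600 mOsm) of all genes tested were called. Between the intensities 2 were higher and 1 lower at 600 mOsm, where 29.1% of all genes were called. Nothing is read from these counts. Pfkfb3 fell at 500 mOsm (-0.37, edgeR adjusted p = 0.000919) and at 600 mOsm (-0.52, adjusted p = 7.32e-05). Pfkfb4 fell at 500 mOsm (-0.52, edgeR adjusted p = 0.000121) and was higher at 600 than at 500 mOsm (0.37, adjusted p = 0.00178). The gene that rose was Hkdc1, at a low level, from 0.406 CPM in iso-osmolar medium to 1.24 CPM at 500 mOsm (1.58, SE 0.328, edgeR adjusted p = 0.00257) and 0.807 CPM at 600 mOsm (0.99, adjusted p = 0.0452). Hk1, the main hexokinase of most tissues, showed a small decrease at 600 mOsm against control cells (-0.17, edgeR adjusted p = 0.0209) and against 500 mOsm (-0.15, adjusted p = 0.0398). DESeq2 called 3 genes of this list at 600 mOsm against control cells and 2 between the intensities, without Hkdc1 (adjusted p = 0.116) and without Hk1 (adjusted p = 0.0667), respectively.

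**Figure D5:**
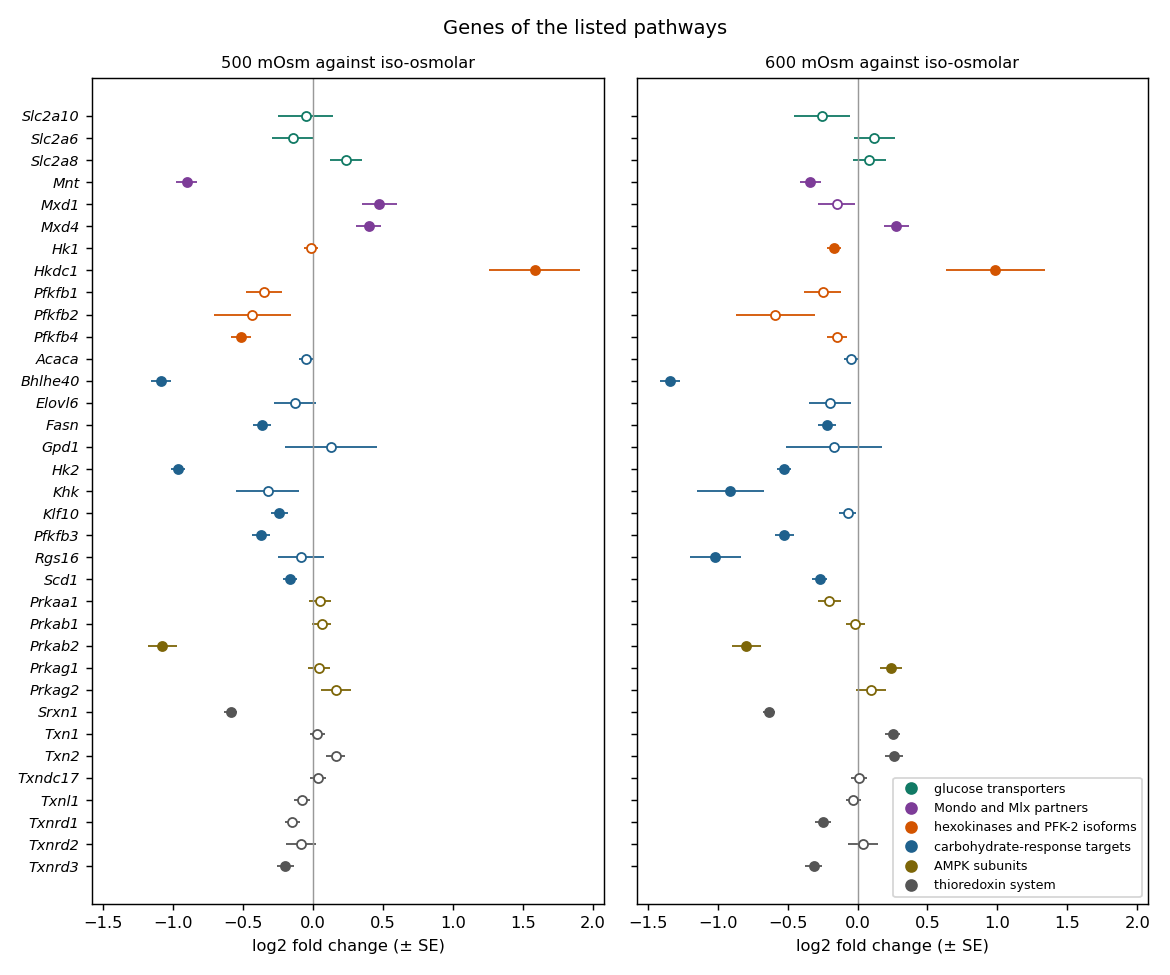
Log2 fold change (x axis, with standard error) against iso-osmolar medium at 500 mOsm (left) and 600 mOsm (right) of the genes that passed the filter in 6 pathway lists, coloured by list; Hk2 and Pfkfb3, which are in 2 lists, are drawn with the carbohydrate-response targets. Filled circles have an edgeR adjusted p under 0.05; no filled circle of the carbohydrate-response targets lies above 0 in either panel.

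AMP-activated protein kinase, the energy sensor that phosphorylates Txnip protein, was represented by 5 of 7 subunit genes. At 500 mOsm 1 subunit gene fell, at 600 mOsm 1 rose and 1 fell, and between the intensities 1 was lower at 600 mOsm. Over all genes tested, 28%, 35.1% and 29.1% were called in the same order. The regulatory subunit gene Prkab2 fell from 11.1 CPM to 5.26 CPM at 500 mOsm (-1.08, SE 0.105, edgeR adjusted p = 6.27e-06) and to 6.39 CPM at 600 mOsm (-0.80, adjusted p = 8.34e-05). Prkag1 rose at 600 mOsm (0.24, edgeR adjusted p = 0.0341), and the catalytic subunit gene Prkaa1 was lower at 600 than at 500 mOsm (-0.25, adjusted p = 0.0344).

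All 8 genes of the thioredoxin system, to which the Txnip protein binds through thioredoxin, passed the filter. At 500 mOsm 2 fell, at 600 mOsm 2 rose and 3 fell, and 1 was higher at 600 than at 500 mOsm. In the same order, 28%, 35.1% and 29.1% of all genes tested were called. Txn1, cytosolic thioredoxin itself, rose at 600 mOsm from 335 to 399 CPM (0.25, SE 0.0553, edgeR adjusted p = 0.00376) and was higher there than at 500 mOsm (0.22, adjusted p = 0.00919). The mitochondrial Txn2 rose at 600 mOsm (0.26, edgeR adjusted p = 0.00968). Srxn1, a sulfiredoxin, fell at 500 mOsm (-0.59, edgeR adjusted p = 7.29e-07) and at 600 mOsm (-0.63, adjusted p = 4.64e-07). The reductase gene Txnrd3 fell at 500 mOsm (-0.20, edgeR adjusted p = 0.0255) and at 600 mOsm (-0.31, adjusted p = 0.00171).

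The ubiquitin ligases of the Nedd4 family, the partners of α-arrestins, were tested for 7 of 9 genes and showed 0 calls at 500 mOsm (with an unadjusted p under 0.05 in 1 of 7, and 0 called by DESeq2). At 600 mOsm 3 fell, namely Smurf2 (-0.36, edgeR adjusted p = 0.000628), Smurf1 (-0.28, adjusted p = 0.000622) and Nedd4l (-0.19, adjusted p = 0.02). These 3 were also lower at 600 than at 500 mOsm, and Wwp2 was higher (0.16, edgeR adjusted p = 0.0175). Of all genes tested, 28% were called at 500 mOsm, 35.1% at 600 mOsm and 29.1% between the intensities. Of the β-arrestins and Vps26-type proteins that share the arrestin fold, 6 of the 8 genes found in the table were tested. Dscr3 rose at 500 mOsm (0.16, edgeR adjusted p = 0.0481), a call lost with DESeq2 (adjusted p = 0.0971), and at 600 mOsm (0.33, edgeR adjusted p = 0.000558), and β-arrestin 2 (Arrb2) rose at 600 mOsm (0.25, adjusted p = 0.0125). The α-arrestin Arrdc5 had 22 counts in all.

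Of 11 genes of the retromer, its sorting nexins and ESCRT partners, which return GLUT1 from endosomes to the surface or cooperate with Arrdc1, all 11 were tested. Only Snx5 fell at 500 mOsm (-0.43, edgeR adjusted p = 0.00054). At 600 mOsm 1 rose, Snx1 (0.18, edgeR adjusted p = 0.0281), and 3 fell. Among the latter, Snx27, the cargo adaptor for GLUT1 recycling, was 90.9 CPM in iso-osmolar medium, 94.9 CPM at 500 mOsm and 65.8 CPM at 600 mOsm (-0.47, SE 0.0585, edgeR adjusted p = 6.32e-05 against control cells). Between the intensities Snx27 (-0.53, edgeR adjusted p = 2.45e-05) and Vps4b (-0.24, adjusted p = 0.0295) were lower and Snx5 (0.23, adjusted p = 0.0329) higher at 600 mOsm. The shares called over all genes tested were 28% at 500 mOsm, 35.1% at 600 mOsm and 29.1% between the intensities.

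Of the 13 other genes with the direct CACGNG pair of Txnip in their upstream 250 bases, 7 passed the filter. At 600 mOsm 2 rose, 1 fell and 4 were not called against control cells, and at 500 mOsm 1 rose and 1 fell. Over all genes tested, 35.1% were called at 600 mOsm and 28% at 500 mOsm. Singled out after their values were seen, Fem1b fell at 500 mOsm (-0.90, edgeR adjusted p = 4.91e-07) and at 600 mOsm (-0.56, adjusted p = 3.6e-05) against control cells and was higher at 600 than at 500 mOsm (0.35, adjusted p = 0.00167), as was A430005L14Rik (0.39, adjusted p = 0.00161). Man2b2 rose at both intensities, by 0.25 (edgeR adjusted p = 0.00184) and 0.36 (adjusted p = 0.000136) on the log2 scale. The median log2 fold change of these 7 genes lay between 0.01 and 0.034 in the 3 comparisons.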

How the data were processed

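Per the labels and the study's methods, polyadenylated RNA of MEFs was sequenced in paired ends and mapped to mm10. The submitters' processing notes name CASAVA 1.8 and STAR, and the counting tool and its strand setting are not given in the sources used here. The authors deposited raw read counts per gene and FPKM, which are the counts scaled to gene length and to the library total. Libraries held 21716042 to 26740832 counts. The members and gene lists were chosen with earlier results of these data known.

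Counts of all 9 libraries were fitted together with edgeR 4.0.16 (quasi-likelihood test, TMM normalization, R 4.3.3) after filterByExpr, which kept 13082 of 35275 genes. The 3 comparisons between treatments were taken from this fit, Benjamini-Hochberg adjusted p-values cover every gene tested, and a gene was called at an adjusted p under 0.05. The genes named are the 8 members, the 8 genes nearest to Txnip by Pearson's r of log2 CPM (prior count 2), the genes whose exons overlap a member, and, of each pathway list, up to 4 called genes per comparison with the largest change. Slc2a3, Slc2a4, Slc2a6, Slc2a8, Slc2a10, Mlxipl, Arrdc5, the marker genes and 3 genes with the motif pair were named outside this rule. Replicate libraries differed beyond sampling noise (chi-square per degree of freedom 5.27 to 16.0), so each was counted once. Alternatives were another scaling, filter or tool (DESeq2 1.42.0, limma 3.58.1 on log2 FPKM with a pseudocount of 1 or 0.1), a replicate block, fits of 2 groups, and leaving out each library.

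Sequences are from RefSeq (GRCm38.p6), and exon overlaps from GENCODE M21.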

Additional observations from a re-analysis of the deposited data

How the results depend on the processing

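Values of the members are descriptions here too. No member called in a comparison changed direction under an alternative run. Genes called numbered 3810 between the intensities, 3659 at 500 mOsm and 4594 at 600 mOsm against control cells. These counts were 2950 to 3890, 3156 to 3895 and 3567 to 4692 when 1 library was left out. Members called numbered 2, 3 and 6, and 2 to 3, 2 to 4 and 4 to 6 without 1 library. The log2 fold change of Txnip was 2.65 to 2.85, -1.63 to -1.42 and 1.14 to 1.28 without 1 library. Arrdc2 at 600 mOsm lost its call with limma on log2(FPKM + 1) (0.30) and log2(FPKM + 0.1) (0.36).

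No pairing by replicate number was seen, though with 3 libraries per group this check cannot exclude one. Deviations from the group means correlated at a mean r of -0.20 (-0.53 to 0.45) between libraries with the same number and 0.10 between others. Of 9 libraries, 1 correlated best with its own number. With the replicate block, 3089, 3111 and 3798 genes and 2, 3 and 5 members were called, Arrdc2 at 600 mOsm being the member lost (0.40). For the pathway genes, alternatives were added after seeing the data. Of their 67 calls, 15 were lost with the replicate block, 9 without the filter, 8 with 2 groups fitted and 4 with DESeq2. With limma on log2 FPKM 6 (pseudocount 1) and 4 (pseudocount 0.1) were lost, with library size only 3, and with RLE scaling 2. None changed direction.

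Differences near 0, none of them called, changed sign. Arrdc4 between the intensities was 0.0023 with RLE scaling, 0.021 without the filter, 0.0036 with DESeq2 and 0.00031 with 2 groups fitted. Mlxip at 500 mOsm was -0.0040 without the filter. Without 1 library, Arrdc4 ranged from -0.15 to 0.17 between the intensities, and against control cells from -0.18 to 0.18 under low and -0.17 to 0.18 under high intensity, Mlxip at 500 mOsm from -0.018 to 0.048, and between the intensities Mlx from -0.020 to 0.067 and Arrdc2 from -0.017 to 0.21. The cause was not tested. Arrdc3, which kept its sign in every run, and Arrdc4 had 11 to 53 counts per library.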
